A study of Ovis aries with 16 samples.

Results

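The effect of postnatal overfeeding on the heart was measured in adult female sheep that had all been exposed to bisphenol A (BPA) before birth. The libraries compared were chosen by their labels: the 4 libraries of the ObBPA group (prenatal BPA, then overfeeding) against the 4 of the BPA group (prenatal BPA, then control diet), 8 of the 16 libraries of the series. Messenger RNA was sequenced from myocardium, the muscle of the heart wall, with 1 library per animal. The other 8 libraries came from animals whose mothers received vehicle, on the control diet (control) or overfed (obese). They entered only where they are named.

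The mothers of both compared groups received BPA at 0.5 mg/kg per day in corn oil, injected under the skin daily between gestation days 30 and 90. From 14 weeks of age the BPA animals were given 1.4 lbs of corn and 1.4 lbs of hay a day, and the ObBPA animals 1.7 lbs of corn and 1.6 lbs of hay at first and feed without limit later. The ration of both was raised by the same percentages as the animals grew. All were killed at 21 months, after prostaglandin injections that synchronised their cycles, so both groups were sampled in a presumptive follicular phase. Which daughters shared a mother is not given in the sources used here.

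BPA binds oestrogen receptors weakly, and the heart expresses these receptors. The adult heart takes most of its energy from fatty acids, and overfeeding raises the supply of fat and glucose to it. Cardiac muscle responds to such a supply through nuclear receptors, which change the transcription of genes for fat uptake, oxidation and storage. Whether overfeeding altered the transcriptome of hearts already exposed to BPA is the question this comparison addresses. The features of the table carried Ensembl sheep gene IDs that could be paired with no gene name (0 matched), so the tissue label could not be checked against marker genes, and no pathway is described. Myocardium holds several cell types, and in such bulk samples fewer cells of a type and less RNA per cell cannot be told apart.

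Of 27054 features, 12716 reached 1 FPKM in 4 or more of these 8 libraries and were tested. FPKM values are numbers of sequenced fragments scaled by the length of the transcript and by the size of the library. Depth can be given only in relative terms. A feature of low level takes values that are whole multiples of a fixed step, and the ratio of the steps between 2 libraries gives their relative depth. The reference was BPA library 3, the deepest of the 6 that could be placed in this way. Set against it, the depth was 0.457 and 0.371 in BPA libraries 1 and 2, and 0.618, 0.53 and 0.615 in ObBPA libraries 1 to 3. The libraries numbered 0 of both groups shared no step with the other 6, so their depth stays unknown. They also lay further from their group means, in a measure that includes any shift of a whole library. Their median absolute deviation from the group mean was 0.154 (BPA) and 0.146 (ObBPA) in log2 units. In the other 6 it was 0.0875 to 0.104. The calls, the named features, the number of features under an unadjusted p of 0.05 and the shares of the most abundant features are therefore also given without them.

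At a false discovery rate of 0.05, 1 feature (0.00786% of those tested) was higher and 1 (0.00786%) lower in overfed animals, and both were listed at 0 in every library of 1 group. Every BPA library listed ENSOARG00000021237 at 0, whereas ObBPA libraries 0 to 3 gave it an FPKM of 36.3, 22.5, 26.2 and 67.8. Its adjusted p was 0.00048 by limma. ENSOARG00000024827 showed the opposite pattern, with 23.4, 60.8, 37.4 and 55.6 in BPA libraries 0 to 3 and 0 in all 4 ObBPA libraries. Here the adjusted p was 0.000267 by limma. These 2 calls are 0.0157% of the features tested. Both features passed the filter only through the group in which they were high, so that a difference was built into their passing it.

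The values of both called features were made of very few steps. After correction for relative depth, ENSOARG00000021237 had 1, 1 and 3 steps in ObBPA libraries 1, 2 and 3, and 0 in the 3 BPA libraries that could be placed. For ENSOARG00000024827 the numbers were 2, 1 and 4 steps in BPA libraries 1, 2 and 3, and 0 in ObBPA libraries 1 to 3. A step was worth 13.9 FPKM in BPA library 3 and 37.4 FPKM in BPA library 2, the shallowest of the 6. The FPKM of 37.4 that ENSOARG00000024827 had in that library was thus a single step. How many fragments make up 1 step is not known from the table.

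**Figure D1:**
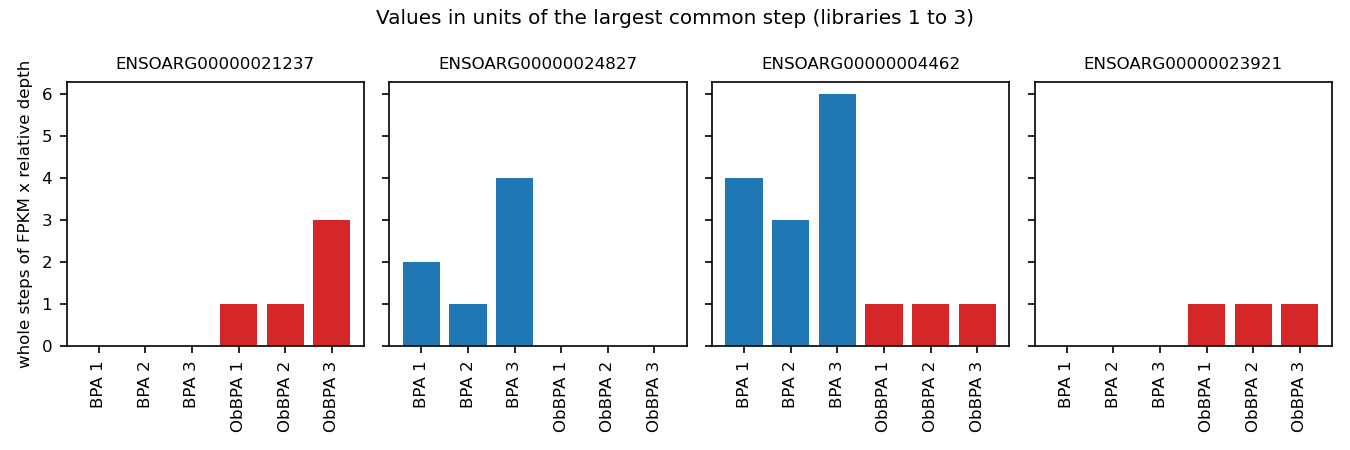
Values of 4 features in whole steps (vertical axis: FPKM multiplied by relative depth, in units of the largest step common to all values of the feature) in the 6 libraries numbered 1 to 3 (horizontal axis, blue BPA, red ObBPA). The called features ENSOARG00000021237 and ENSOARG00000024827 sum to 5 and 7 steps in the group where they were above 0, and no bar means a value of 0.

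Neither called feature kept to 1 prenatal treatment or diet across the series. In vehicle-exposed animals ENSOARG00000021237 had 71.0, 0, 0 and 24.3 in the control and 0, 27.5, 0 and 0 in the obese libraries. ENSOARG00000024827 had 0, 0, 27.0 and 0 in the control and 0, 55.0, 0 and 0 in the obese libraries. Each was thus at 0 in some animals of a group and above 0 in others. In the libraries that could be placed, these values above 0 were 1 or 2 steps. When all 16 libraries were fitted with these values included, both had an adjusted p of 1 by limma. The difference between the overfeeding effect after BPA and that after vehicle did not pass either, with an adjusted p of 0.998 by limma for both.

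Without the libraries numbered 0 in both groups, 2 features were again called, 0.0157% of those tested, but not the same pair. ENSOARG00000024827 was called with an adjusted p of 0.000423 by limma, while ENSOARG00000021237 had 0.0561. The other call, chosen for mention after its values were seen, was ENSOARG00000023921. Its FPKM was 0 in BPA libraries 1 to 3 and 128, 150 and 129 in ObBPA libraries 1 to 3, each of which was 1 step. The libraries numbered 0 ran the other way, with 153 in BPA and 0 in ObBPA, and with all 8 libraries its adjusted p was 0.999 by limma.

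Among features measured above 0 in all 8 libraries, the smallest p on the higher side belonged to ENSOARG00000000645. Its FPKM was 11.9, 10.6, 12.2 and 12.6 in BPA libraries 0 to 3 and 15.7, 17.1, 15.7 and 15.9 in ObBPA libraries 0 to 3. All ObBPA animals lay above all BPA animals, and the spread within each group was small. Mean levels were 11.8 ± 0.844 and 16.1 ± 0.678 (SD, n = 4). The log2 difference was 0.41 ± 0.0734 (SE), and by limma its adjusted p was 0.999. Without the libraries numbered 0 the difference was 0.43 ± 0.0821 (SE), with an adjusted p of 0.659. A feature picked by small p is likely to vary little within the groups that picked it, here and for the features that follow. Vehicle-exposed animals, which did not enter the choice, ranged from 12.5 to 18.9 under the control diet and from 11.6 to 16.7 under overfeeding.

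ENSOARG00000010816 had 15.7, 16.3, 14.7 and 15.5 in the BPA and 21.0, 19.3, 23.2 and 21.2 in the ObBPA libraries. The groups did not overlap here either. Its log2 difference was 0.42 ± 0.0758 (SE), and the adjusted p by limma was again 0.999. Without the libraries numbered 0 these values were 0.43 ± 0.0863 (SE) and 0.659. Control animals averaged 15.2 ± 4.00 and obese animals 15.4 ± 1.83, beside 15.6 ± 0.667 in BPA and 21.2 ± 1.62 in ObBPA animals (SD, n = 4). The difference of its overfeeding effect between BPA-exposed and vehicle-exposed animals was 0.37 ± 0.214 (SE) on the log2 scale, with an adjusted p of 0.998 by limma.

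On the lower side ENSOARG00000004462, a feature of low level, had the smallest p. Its FPKM was 1.32, 1.88, 1.74 and 1.29 in the BPA and 0.748, 0.348, 0.406 and 0.350 in the ObBPA libraries, with no overlap. In steps these values were 4, 3 and 6 in BPA libraries 1 to 3 and 1 in each of ObBPA libraries 1 to 3. The log2 difference of -0.81 ± 0.124 (SE) had an adjusted p of 0.639 by limma, and in libraries 1 to 3 alone -0.94 ± 0.116 (SE) had one of 0.421. Only in the BPA libraries did ENSOARG00000004462 reach an FPKM of 1. Like the called features, it passed the filter only through the group in which it was high, so that a difference was built in.

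ENSOARG00000015715 had 5.17, 8.92, 8.5 and 8.39 in the BPA and 3.14, 3.90, 1.5 and 1.37 in the ObBPA libraries. The BPA library nearest to the ObBPA group was the one numbered 0. Its log2 difference was -1.38 ± 0.266 (SE) and the adjusted p by limma was 0.999. Without the libraries numbered 0, the difference was -1.64 ± 0.282 (SE) with an adjusted p of 0.659. Control hearts ranged from 2.51 to 10.3 and obese hearts from 3.43 to 10.6, so each vehicle group spread over nearly the range that separated BPA from ObBPA.

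**Figure D2:**
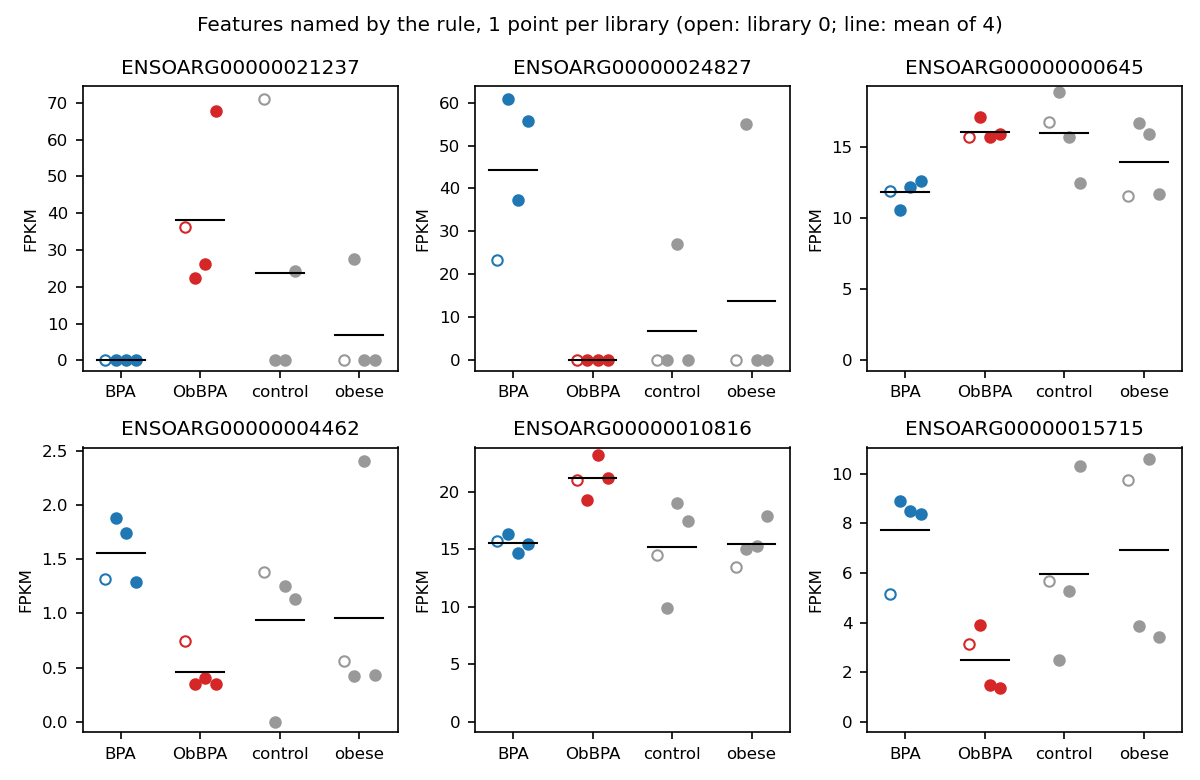
FPKM (vertical axes, linear) of the 6 features named by rule in every library of the 4 groups, 1 point per animal, open for the library numbered 0, with a line at the mean of 4. BPA (blue) and ObBPA (red) do not overlap in any panel, since the features were picked by small p. Control and obese animals (grey), on which the choice did not depend, are not confined to the range of BPA or to that of ObBPA, as for ENSOARG00000015715 with 2.51 to 10.3 in control.

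Most features differed little between the groups. The median log2 difference was 0.0063, the 5th percentile -0.225 and the 95th percentile 0.271. The median SE was 0.119. The 95% interval stayed inside a doubling or halving of FPKM + 1 in 94.4% of all features and in 96.7% of those above 0 in all 8 libraries. Since 1 is added to every value, this bound is looser for features of low level.

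Large differences were found mainly among features listed at 0 somewhere. A difference of 2-fold or more in FPKM + 1 was measured for 85 features upward and 81 downward. Of these 166 features, 146 were among the 300 that were listed at 0 in at least 1 library, 78 upward and 68 downward. Among the 12416 features above 0 in all 8 libraries, 7 were higher and 13 lower by that much. Only 1 of those 7 and 4 of those 13 had groups that did not overlap. A lack of overlap was found for 221 of all features tested, 1.74%, with 123 (0.967%) higher and 98 (0.771%) lower in ObBPA. Labels given at random, 4 animals against 4, would leave no overlap for a share of 0.0286, which is above the share seen.

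**Figure D3:**
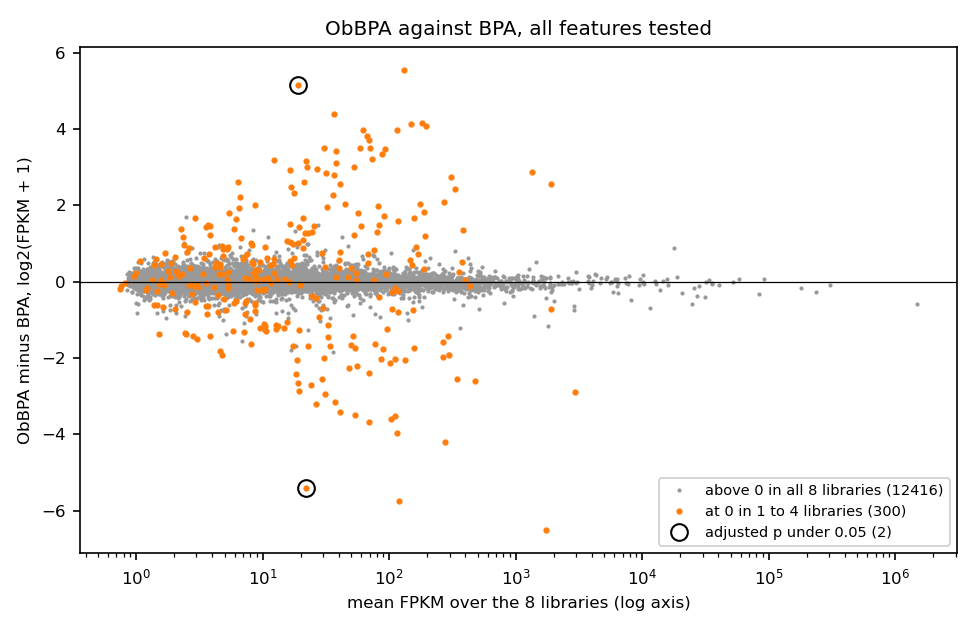
Log2 difference of ObBPA minus BPA (vertical axis, log2 of FPKM + 1) against mean FPKM over the 8 libraries (horizontal log axis) for the 12716 features tested. The 12416 features above 0 in every library (grey) stay near 0, the 300 listed at 0 in at least 1 library (orange) spread furthest, and both called features (circles) are orange.

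Most of the 300 features listed at 0 had a high FPKM in another library. In 237 of them the highest value reached an FPKM of 10 or more, and in 151 even the lowest value above 0 did. Whole steps of at most 10 were found for 256 of them in the libraries numbered 1 to 3, and for 222 no library held more than 5 steps. By group, 123 features had more zeros in BPA, 96 had more in ObBPA and 81 had as many in each. The filter allowed at most 4 zeros a feature, and 77 features had exactly 4. Of these, 41 had 2 in each group, 19 had 3 in BPA and 1 in ObBPA, and 15 had 1 in BPA and 3 in ObBPA. The remaining 2, with all 4 in 1 group, were the called features. When features listed at 0 in any library were left out, limma called none, with 400 features at an unadjusted p under 0.05.

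**Figure D4:**
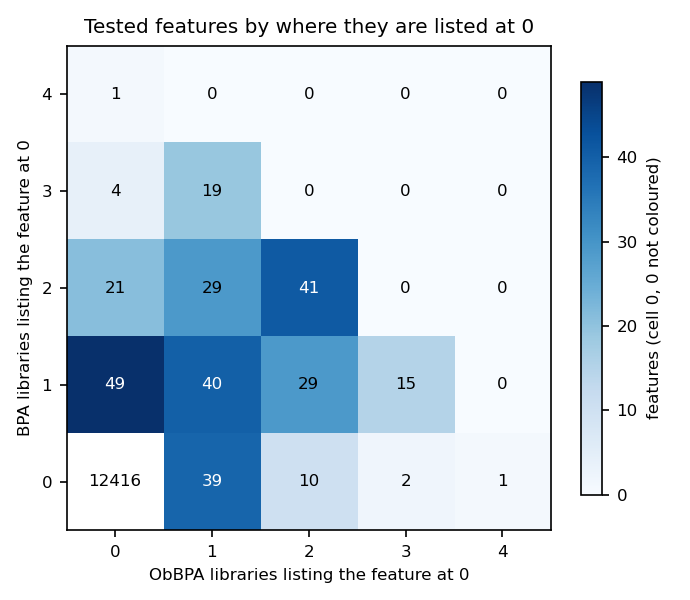
Number of tested features by how many BPA libraries (vertical axis) and ObBPA libraries (horizontal axis) list them at 0, with darker cells for more features and the 12416 features without a zero left uncoloured. The 2 cells with all zeros in 1 group hold 1 feature each, against 41 features with 2 zeros in each group.

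At an unadjusted p under 0.05, limma put 394 features, 3.1% of those tested, with 243 (1.91%) higher and 151 (1.19%) lower in ObBPA. The share was similar at every level of expression, from 2.71% of features with a mean FPKM of 30 to 100 up to 3.85% of the 156 features whose mean FPKM was 1000 or more. Below a mean FPKM of 100 more were higher than lower, as with 84 higher and 55 lower between 3 and 10. Among features with means of 100 to 1000, 9 were higher and 18 lower, and above 1000 the numbers were 1 and 5. The split depended on the scaling: after quantile normalization 243 were higher and 254 lower, and after median-of-ratios scaling 275 were higher and 213 lower.

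Single libraries moved this number more than the scaling did. Without BPA library 0 it was 735, with 242 higher and 493 lower, and without ObBPA library 0 it was 605, with 435 higher and 170 lower. The libraries numbered 0 had lower values than their groups, with a median deviation from the group mean of -0.103 in BPA and -0.0892 in ObBPA in log2 units. Without both the number was 888, 6.98% of the features tested, with 429 higher and 459 lower. Only 230 of these were among the 394 found with all 8 libraries, 58.4% of the latter and 25.9% of the former.

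The pair of libraries numbered 0 served as a measurement that did not enter the fit of libraries 1 to 3. Of the 429 features higher in ObBPA in that fit, 188 were also higher in ObBPA library 0 than in BPA library 0, or 43.8%. Over all features higher in libraries 1 to 3, whatever their p, the share was 53.2%. Of the 459 lower features, 164 were lower in the pair, or 35.7%, against 42.2% of all features lower in libraries 1 to 3. The features selected upward had a median log2 difference of 0.32 in libraries 1 to 3 and of -0.047 in the pair, and those selected downward -0.29 and 0.061. Features picked at this threshold thus did not keep their direction in the pair more often than features at large. The pair is 1 animal per group, and its libraries also lay further from their group means than the rest.

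**Figure D5:**
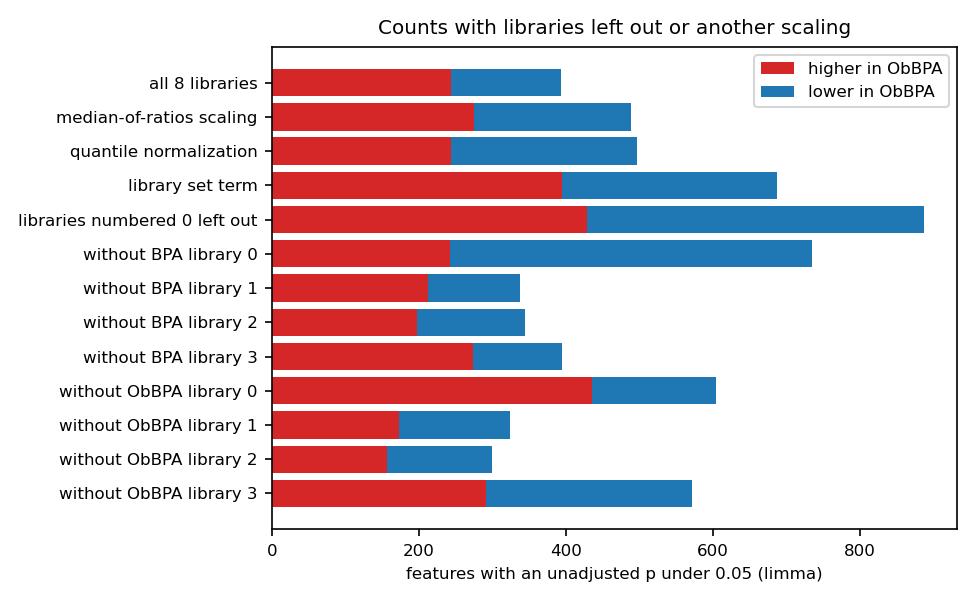
Number of features with an unadjusted p under 0.05 by limma (horizontal axis), higher (red) or lower (blue) in ObBPA, with all 8 libraries, under other scalings, and with libraries left out. The bar is longest, at 888, without the libraries numbered 0, and the split turns from 243 higher and 151 lower to 242 higher and 493 lower without BPA library 0.

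Whole profiles were about as alike between the groups as within them. Correlations of log2(FPKM + 1) had a median of 0.952 within groups, with a range of 0.941 to 0.962, and of 0.952 between groups, with a range of 0.937 to 0.967. The median SD of a feature within a group was 0.163 in BPA and 0.161 in ObBPA in log2 units, and the SD was larger in ObBPA for 6327 of the 12716 features.

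Overfed animals had a smaller mean share of FPKM in the most abundant feature, ENSOARG00000000037, but the groups overlapped through BPA library 0. The share of all summed FPKM was 32.3%, 43.4%, 48.5% and 46.5% in BPA libraries 0 to 3 and 30.7%, 32.0%, 39.3% and 37.3% in ObBPA libraries 0 to 3. The means of 42.7% ± 7.21 and 34.8% ± 4.15 (SD, n = 4) gave an exact two-sided permutation p of 0.114, or 0.286 adjusted over 5 library measures. The smallest p that 4 animals against 4 allow is 0.0286. The 10 most abundant features together took 70% ± 3.65 in BPA animals and 65.3% ± 3.75 in ObBPA animals (SD, n = 4), with the same exact p. Among the libraries numbered 1 to 3, all BPA animals lay above all ObBPA animals in both shares. The difference, ObBPA minus BPA, was then -9.93 percentage points for the most abundant feature and -5.99 for the top 10. Both had an exact permutation p of 0.1, the smallest that 3 animals against 3 allow. Features with an FPKM of at least 1 numbered 12644 ± 119 in BPA animals and 12682 ± 128 in ObBPA animals (SD, n = 4; exact permutation p = 0.657). The number of tested features listed at 0 (exact permutation p = 0.714) and the FPKM summed without the 10 most abundant features (exact permutation p = 0.229) did not pass either.

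Whether overfeeding acted differently after BPA than after vehicle was tested over all 16 libraries for the same 12716 features. By limma 0 features (0%) were called, and 328, or 2.58%, were under an unadjusted p of 0.05. This difference was measured less precisely than the overfeeding effect itself, with a median SE of 0.22. For no feature was a response to overfeeding shown to be limited to BPA-exposed animals.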

How the data were processed

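Per the file headers, the authors deposited FPKM values, 1 column per animal. The submitters' processing notes name Cuffdiff 2.1.1, Cufflinks, Bowtie2 2.1.0, TopHat2 2.0.9 and FastQC, and the genome build Oar_v3.1. Their order, settings and any scaling between libraries are not given in the sources used here. Every column matched a sample title, and 0 belonged to another series. Libraries were made from poly-A RNA with the TruSeq kit, per the labels' protocols.

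FPKM are not counts, so log2(FPKM + 1) was fitted with limma 3.58.1 in R 4.3.3 (trended prior, 6 residual and 2.35 prior degrees of freedom, two-sided), with p-values adjusted by the Benjamini-Hochberg method over 12716 features at a false discovery rate of 0.05. Differences on this scale understate the change of features of low level. Relative depth was taken as the commonest ratio among features under an FPKM of 0.3 in both libraries, and multiples were called whole within 0.001 of a step, in features above 0 in at least 3 of the 6 libraries. Other values were computed with Python 3.11.15. The procedure was tested on simulated data with normally distributed values. These held no whole steps and no features listed at 0, so the test did not cover values like those of the called features.

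The text names every called feature and those of smallest p in each direction, 2 among all tested and 2 among those above 0 in all 8 libraries. The comparison, lists and rules were chosen with earlier results of these data known. Gene and marker lists could not be used without gene names. Alternatives changed the pseudocount, filter, scaling, variance model, weights, libraries fitted and replicate block, and left out each library in turn.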

Additional observations from a re-analysis of the deposited data

Results flagged for a closer look

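In 5 of the 22 groups of 4 libraries examined, 1 animal lay far from the other 3, where chance alone gives about 1 in 20. The features were picked by small p or by their zeros in these same data, so that number is no fair standard here. ENSOARG00000000645 reached an FPKM of 17.1 in ObBPA library 1, above the other ObBPA animals. ENSOARG00000004462 stood at 0.748 in ObBPA library 0, above the other ObBPA animals. ENSOARG00000015715 stood at 5.17 in BPA library 0, below the other BPA animals. ENSOARG00000023921 had 153 in BPA library 0, where the other BPA animals were at 0, and 0 in ObBPA library 0, where the others lay between 128 and 150. These 5 values come from 3 animals: BPA library 0 and ObBPA library 0 with 2 each, and ObBPA library 1 with 1.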

How the results depend on the processing

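With all 8 libraries 2 features were called by limma. Of 24 alternatives, 16 also gave 2 calls and 4 gave 3. The number was 0 with an FPKM of at least 1 required in all 8 libraries (367 at an unadjusted p under 0.05), 0 with a value above 0 required in all 8 (400), 0 with all 16 libraries fitted (211) and 0 without features of at most 10 steps (390), an alternative chosen after seeing the data; the first, second and last of these leave both called features out of the test. Leaving out 1 library gave 2 to 3 calls. The added calls were ENSOARG00000024669, ENSOARG00000023228 and ENSOARG00000023119 without BPA library 1, 2 and 3, and ENSOARG00000021353 without ObBPA library 2. Each was at 0 in the 3 remaining libraries of the group that had lost one, and none had more than 2 steps in a library. ENSOARG00000021237 was called in 19 of 21 alternatives that tested it and ENSOARG00000024827 in 20 of 21, with adjusted p by limma of 1.77e-05 to 1 and 1.17e-05 to 1. Except for the fit of all 16 libraries, these alternatives reused the same 8 libraries or a part of them. Every library of 1 group was at 0 there, so the tally is no separate support for either call. The other 4 features named by rule were called in none, and no feature named by rule changed direction. Features at an unadjusted p under 0.05 numbered 710 of 20297 features tested when a value above 0 in 1 library sufficed, against 394 of 12716. Over the same 12716 it was 887 with library weights, 688 with a term for the libraries numbered 0 and 888 without them, and 300 to 735 with 1 library left out. With median-of-ratios scaling it was 488, and library weights moved the share of higher features from 61.7% to 51.5%. The deviations of same-numbered libraries correlated by 0.11, 0.007, -0.073 and 0.022 for numbers 0 to 3, which gave little sign of pairing by number. Only the libraries numbered 0 correlated best with their own number. Such correlations cannot tell whether same-numbered animals shared a mother or were processed together. With the replicate block, 2 features were called and 571 had an unadjusted p under 0.05. The overfeeding effect after BPA and after vehicle differed for 0 features under each setting tried, with 260 to 746 at an unadjusted p under 0.05 by limma when 1 library was left out. With a library left out, none of the 5 library measures could pass 0.05. The smallest exact permutation p that 4 animals against 3 allow is 0.0571, so these values do not bear on stability. The difference in the share of the most abundant feature, ObBPA minus BPA, was -11.3 to -5.92 percentage points there. Alternatives for gene lists were not run. Absolute depth is unknown, so no floor or counting interval can be given.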

Other observations

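Among features whose mean FPKM was 100 or more, that were above 0 in all 8 libraries and did not overlap between groups, ENSOARG00000021488 had the largest difference, a rule set after the data were examined. Its FPKM was 552, 460, 283 and 525 in the BPA and 67.6, 84.9, 198 and 171 in the ObBPA libraries, a log2 difference of -1.89 ± 0.373 (SE), for which limma gave an adjusted p of 0.999. It also varied widely in vehicle-exposed animals, from 46.0 to 398 in control and from 0 to 316 in obese hearts. In the largest step common to the 12 libraries numbered 1 to 3, its values were 8, 4 and 20 steps in BPA libraries 1 to 3 and 2, 4 and 4 in ObBPA libraries 1 to 3. For this feature an FPKM of 283 in BPA library 2 and of 198 in ObBPA library 2 was thus 4 steps each. How many fragments these steps stand for is not known.

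The next feature by the same rule, ENSOARG00000011889, had 1282, 1031, 1181 and 1261 in the BPA and 1636, 1692, 2212 and 1333 in the ObBPA libraries. No whole steps of at most 10 were found for it. The log2 difference of 0.51 ± 0.157 (SE) also had an adjusted p of 0.999 in limma. Without the libraries numbered 0 these values were 0.57 ± 0.195 (SE) and 0.702. Control animals averaged 1531 ± 292 and obese animals 1339 ± 464 (SD, n = 4).

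Few steps were also found outside the features listed at 0. Of 365 tested features whose values in the libraries numbered 1 to 3 were at most 10 whole steps, 109 were above 0 in all 8 libraries. At an unadjusted p under 0.05, 31 of the 394 features had whole steps of at most 10. Of the 166 features that differed by 2-fold or more, 133 did.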
